A study of Mus musculus with 4 samples.

Results

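The Notch pathway was followed in mouse small intestine through 10 genes: the receptors Notch1 and Notch2, the ligands Dll1, Dll4, Jag1 and Jag2, and the target genes Hes1, Hes5, Hey1 and Nrarp. They were taken by gene name from the non-control spots of the arrays, which gave 14 of 41174 probes. Of the 10 genes, 9 had a probe bright enough to test, among 15537 genes tested in all. Notch signals pass between touching cells: a Delta (Dll) or Jagged (Jag) ligand on one cell binds a receptor on its neighbour, and the receptor is then cut by an ADAM protease and by gamma-secretase. The freed intracellular domain joins the DNA-binding protein RBPJ in the nucleus and switches on targets such as the HES and HEY repressors and Nrarp. In the crypt, active Notch is known to keep stem and progenitor cells dividing and to hold back Atoh1, the factor that commits cells to the secretory lineages, while secretory cells carry Dll1 and Dll4.

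Crypts, the pockets of the intestinal lining that hold its stem cells, were freed with EDTA from the small intestine of 2 mice and split. From one share RNA was taken at once, and the other was grown for 1 week in Matrigel as organoids, closed epithelial structures that bud like crypts. The medium held EGF (10 to 50 ng/ml), R-spondin (500 ng/ml) and Noggin (100 ng/ml), and no added Notch ligand is named. Both groups come from the same 2 mice, and the labels give no strain, age or genotype. Crypt and organoid RNA of a mouse (500 ng each) were hybridised together to 2-colour Agilent arrays, with 2 arrays of opposite dye orientation per mouse. The 2 arrays of a mouse repeat the same RNAs and were averaged, so n = 2 mice and each SD is over 2 values. An SD over 2 values is itself uncertain, so a small SD can overstate the precision. The gap between the arrays of a mouse holds dye bias as well as array error, and a constant dye bias cancels in their mean. Freshly isolated crypts and cultured organoids are both mixtures of cells, and in such bulk RNA fewer cells of a type and less RNA per cell cannot be told apart.

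Ratios are log2 of organoid over crypt, so a value above 0 is higher in organoids. Levels are log2 intensities of 1 dye channel after normalisation and are compared only within a probe. Values over the 4 arrays are given in the order mouse 1 with the organoid in Cy5, mouse 1 with it in Cy3, mouse 2 with it in Cy5 and mouse 2 with it in Cy3. A gene is called when limma's moderated test of the 2 mouse means against 0 gave an adjusted p under 0.05, after Benjamini-Hochberg adjustment over all 15537 genes.

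The labelled tissue was checked first. All 10 epithelial markers were well above background in all 8 channels, although 5 of them fell and 1 rose, with a median ratio of -0.68 and summed levels of 629400 to 719700 in crypts and 401500 to 513200 in organoids. Of 12 endothelial markers 6 could be tested, with none called. The summed endothelial marker level was 2349 to 2513 in crypts and 2193 to 2398 in organoids. That sum covers all 12 markers, and dim probes still add to it, so it is in part floor signal. In no channel did Pecam1, Cdh5, Tie1, Emcn or Eng stand well above background, yet 1 Cdh5 probe had a log2 level of 7.22 in crypts and 7.25 in organoids. Of 8 stem cell markers 3 rose, with ratios over the list from -0.38 for Tnfrsf19 to 2.29 for Lgr5 and a median of 0.16. All 6 Paneth cell markers tested fell, and so did 5 of 7 goblet cell markers and 9 of 10 enterocyte markers. The summed Paneth level was 416900 to 704000 in crypts and 73280 to 157700 in organoids. Over all genes the dye-swapped arrays of a mouse correlated at r = 0.837 and 0.850, and the ratios of the 2 mice at r = 0.767.

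One of the 9 tested genes was called: the ligand gene Jag2 was higher in organoids, and none was called lower. Over all genes tested, 849 (5.46%) were called higher and 853 (5.49%) lower. The median ratio of the 9 genes was -0.08, beside 0.03 over all genes, and 2 of the 9, Jag2 and Dll4, had an unadjusted p under 0.05, as 27.7% of all genes did. In levels, Dll4 was the 1 gene of 9 whose 4 organoid values all lay below its 4 crypt values, an arrangement found in 16.4% of all genes. None of the 9 lay the other way round, with all organoid levels above all crypt levels, as 17.3% of all genes did.

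**Figure D1:**
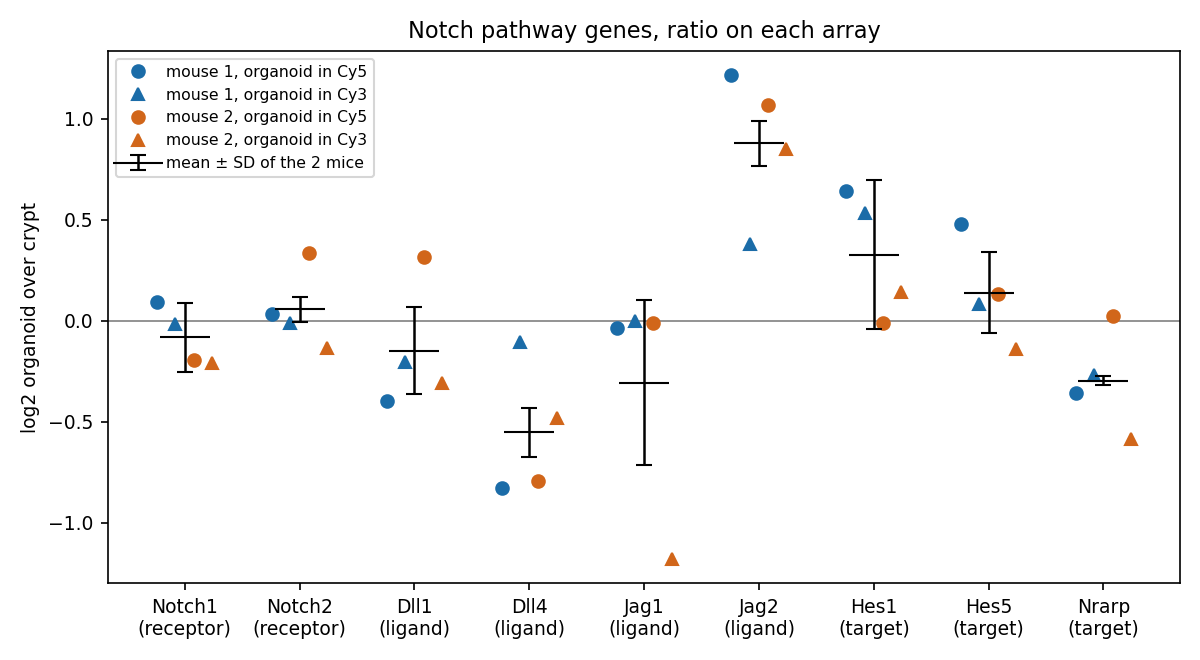
Log2 organoid over crypt ratio on each of the 4 arrays (circles, organoid in Cy5; triangles, organoid in Cy3; blue, mouse 1; orange, mouse 2) for the 9 genes tested; black bars are the mean ± SD of the 2 mouse means. Jag2 lies above 0 and Dll4 below 0 on all 4 arrays, and 1 array of mouse 2 carries the low Jag1 value.

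The receptors come first. Notch1, the main Notch receptor of the crypt together with Notch2, had crypt levels of 8.39, 8.59, 8.52 and 8.53 and organoid levels of 8.48, 8.58, 8.33 and 8.32, and the ranges overlapped. Its ratio was 0.04 in mouse 1 and -0.20 in mouse 2, with a mean of -0.08 ± 0.17 (SD, n = 2; adjusted p = 0.772). The 95% interval ran from -0.43 to 0.27, so changes smaller than these bounds were not resolved with 2 mice. This probe lies at chr2:26314772-26314830 (mm9). A second Notch1 probe, which starts at the base where the first ends (chr2:26314830-26314889), gave -0.02 ± 0.07.

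Notch2 had crypt levels of 9.14, 9.24, 9.23 and 9.47 and organoid levels of 9.18, 9.23, 9.57 and 9.34 (probe at chr3:97953914-97953973, mm9). The ranges of crypt and organoid overlapped nearly whole. The mean ratio was 0.06 ± 0.06 (SD, n = 2; adjusted p = 0.836), with a 95% interval from -0.27 to 0.39. Its direction was negative (-0.07) with only the arrays that carried the organoid in Cy3. A second probe for Notch2 (chr3:97951205-97951264) gave 0.02 ± 0.11, and in no channel was the remaining probe (chr3:97952843-97952902) well above background. Of the other receptors, Notch4 had a ratio of 0.06 ± 0.06 (adjusted p = 0.812), with a negative sign (-0.06) in the arrays with the organoid in Cy5. Notch3 was well above background in 2 of 4 crypt and 3 of 4 organoid channels and was not tested.

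Among the ligands, Jag2 was the gene called. It encodes a Jagged-type ligand, and its probe lies at chr12:114146887-114146946 (mm9). Crypt levels were 7.77, 8.50, 7.51 and 7.49, and organoid levels 8.99, 8.88, 8.58 and 8.34. The organoid channel was the brighter on each of the 4 arrays, although the highest crypt level (8.50) exceeded the lowest organoid level (8.34). The ratios were 1.22, 0.38, 1.07 and 0.85 over the 4 arrays. Per mouse they came to 0.80 and 0.96, a mean of 0.88 ± 0.11 (SD, n = 2), which is 1.84-fold. The gap between the arrays of a mouse, which holds dye bias as well as array error, was 0.84 in mouse 1 and 0.22 in mouse 2. The 95% interval was 0.54 to 1.22 on the log2 scale, with adjusted p = 0.0190.

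The size of the Jag2 difference depended on the processing. With the scanner software's own ratio it was 1.89, and with the authors' deposited matrix 1.86, against 0.88 here. An offset of 50 was added here to each signal after background correction, which draws the ratios of dim spots towards 0 by construction, and its part in this gap was not tested. The Jag2 signal less local background was 101.8 to 217.6 in the crypt channels and 159.4 to 479.5 in the organoid channels. The call was lost with only the arrays that had the organoid in Cy3 (0.62, adjusted p = 0.116) and with each array centred on its median in place of loess (1.02, adjusted p = 0.204). That centring also moved the median of all genes from 0.03 to 0.17.

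For Jag2 the RefSeq table holds 250 bases before a transcription start, chr12:112929496-112929745 on the minus strand of GRCm38.p6. They are shown because Jag2 is the gene that was called, in lower case because the RBPJ core letters described with the targets do not occur in this window, of which 87.2% is G or C.
Jag2: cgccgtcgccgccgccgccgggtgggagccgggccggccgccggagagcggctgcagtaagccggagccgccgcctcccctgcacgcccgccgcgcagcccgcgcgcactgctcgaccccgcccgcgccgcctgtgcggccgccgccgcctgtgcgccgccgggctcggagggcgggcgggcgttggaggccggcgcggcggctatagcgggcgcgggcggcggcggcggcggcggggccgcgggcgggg

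Dll4, a Delta-type ligand of secretory cells, read lower in organoids on every array without passing the test. Crypt levels were 9.07, 8.68, 9.30 and 9.05, and organoid levels 8.24, 8.57, 8.51 and 8.57, with no overlap. The ratios were -0.83, -0.10, -0.79 and -0.48 over the arrays. The mean was -0.55 ± 0.12 (SD, n = 2) for the probe at chr2:119160779-119160838 (mm9). The 95% interval, which is not adjusted for the number of genes, was -0.89 to -0.21, while the adjusted p was 0.0638. Dll4 was called with only the arrays that had the organoid in Cy5 (-0.81, adjusted p = 0.0239) and in a fit of 4 separate arrays with a dye effect (adjusted p = 0.0189). With only the arrays that had the organoid in Cy3 it was -0.29. Most Paneth and goblet cell markers were lower in organoids too, as given above. So were the enterocyte markers, of which 9 of 10 fell, with a median ratio of -1.78. Of 8 enteroendocrine markers tested only 1 fell, with a median ratio of 0.16, and none of 5 tuft cell markers was called. The part of any of these cells in the Dll4 ratio was not tested.

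Dll1, the other Delta ligand of secretory cells, had crypt levels of 10.94, 10.87, 11.03 and 11.36 and organoid levels of 10.54, 10.66, 11.35 and 11.05, which overlapped. In mouse 1 both arrays were below 0 (-0.40 and -0.20), and in mouse 2 they lay on either side of it (0.32 and -0.31). The mean was -0.15 ± 0.21 (SD, n = 2; adjusted p = 0.584; 95% interval -0.51 to 0.22). The sign was positive (0.08) with median centring, and with the mouse 2 array of the organoid in Cy3 left out (0.01).

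The Dll1 and main Notch1 probes were printed 10 times on each array, which separates spot error from differences between arrays, dye bias included. The Dll1 probe lies at chr17:15504623-15504682 (mm9). Its spots spread with an SD of 0.02 to 0.04 within an array. On the mouse 2 array with the organoid in Cy5 all of its spots lay between 0.29 and 0.36, and on the other array of the same 2 RNAs between -0.37 and -0.25. The gap of 0.63 between these arrays was therefore far above the spread of spots, and spots are not replicates of the comparison. For Notch1 the SD over spots was 0.04 to 0.07, and the arrays of a mouse differed by 0.11 and 0.01.

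**Figure D2:**
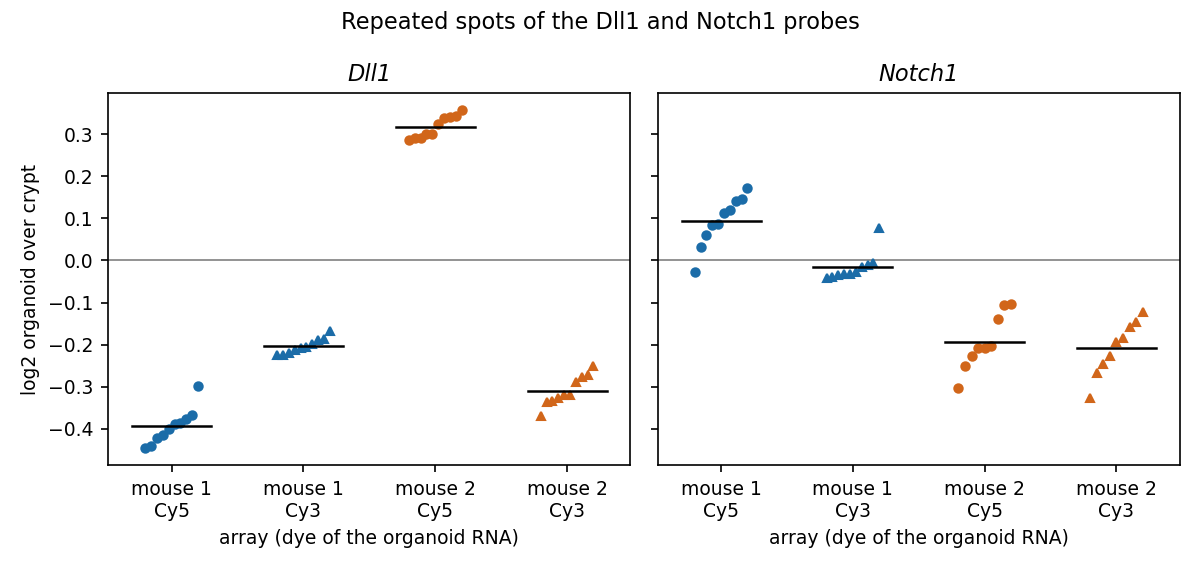
Log2 organoid over crypt ratio of each usable repeated spot of the Dll1 probe (left) and the Notch1 probe (right) on the 4 arrays, sorted within an array, with the array mean as a black bar. Spots cluster within an array, and the mouse 2 arrays of Dll1 lie on opposite sides of 0 at 0.32 and -0.31.

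Jag1, a Jagged ligand, had crypt levels of 9.73, 9.71, 9.82 and 10.42 and organoid levels of 9.70, 9.71, 9.80 and 9.24 (probe at chr2:136907433-136907492, mm9). Crypt and organoid lay together on 3 arrays, with ratios of -0.03, 0.00 and -0.01, and apart on the mouse 2 array with the organoid in Cy3, with -1.18. The mean of -0.31 ± 0.41 (SD, n = 2; adjusted p = 0.350) rested on that array, and without it the mean was -0.01. The second Jag1 probe (chr2:136908942-136909001) gave -0.15 on the same array but reached well above background in no channel. Dll3, a divergent Delta family member outside the 10 genes, had a ratio of 0.19 ± 0.05 (adjusted p = 0.414).

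**Figure D3:**
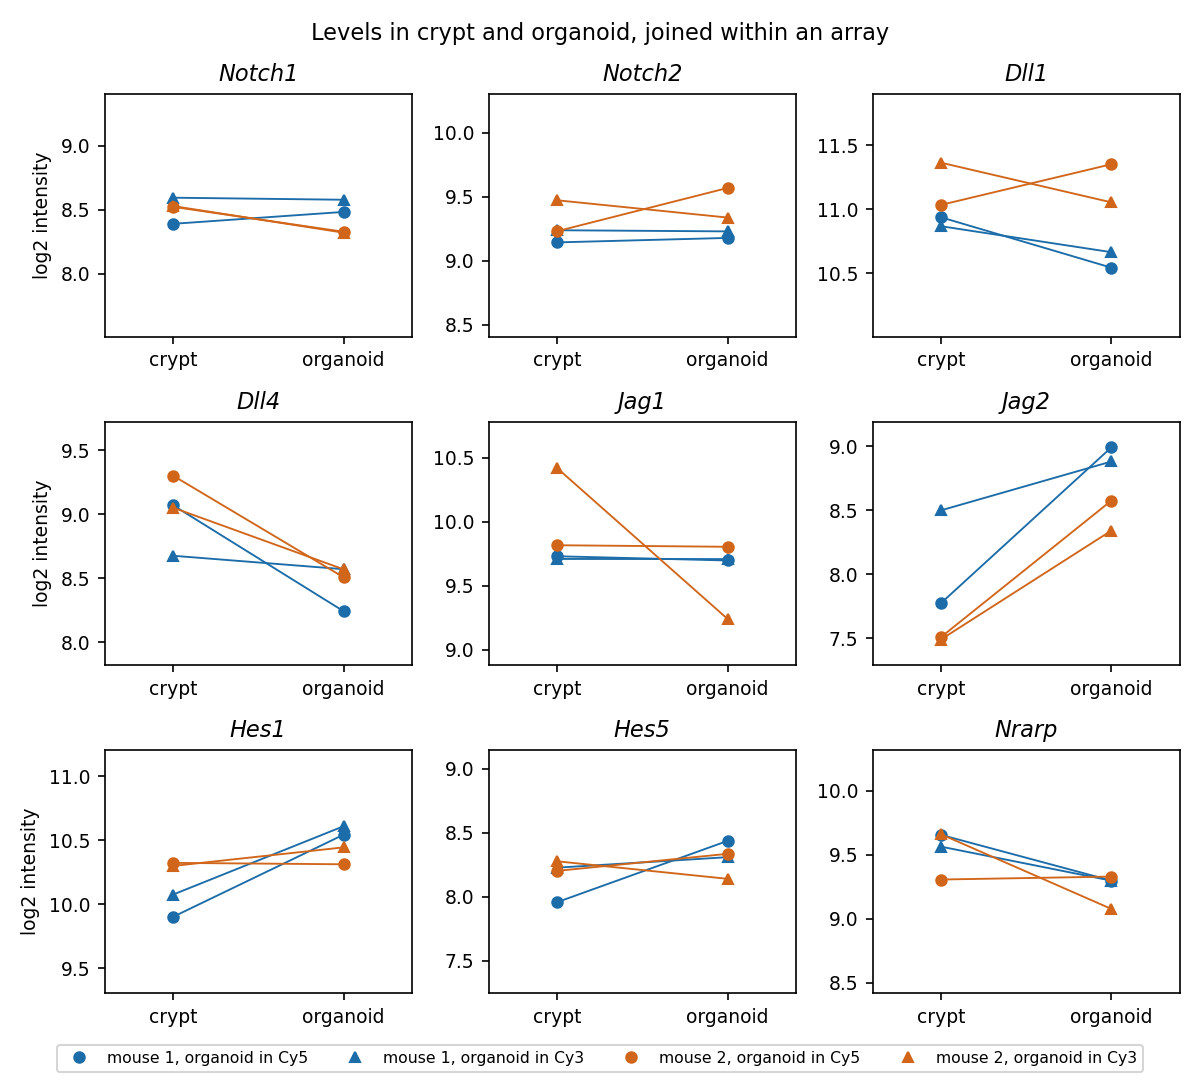
Log2 intensity in the crypt and organoid channels, joined within an array, 1 panel per gene with its own axis of equal span; colours mark the mouse and symbols the dye of the organoid RNA. Jag2 lines rise and Dll4 lines fall on all 4 arrays, and the steep Jag1 line is the mouse 2 array with the organoid in Cy3.

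None of the tested targets was called. Hes1, the repressor through which Notch is known to silence Atoh1, had crypt levels of 9.90, 10.07, 10.32 and 10.30 and organoid levels of 10.54, 10.61, 10.31 and 10.44. The highest crypt level and the lowest organoid level, both of mouse 2, met at 10.32 and 10.31. Ratios were 0.64 and 0.53 in mouse 1 and -0.01 and 0.14 in mouse 2, so arrays of a mouse lay closer together than the mice did. The mean was 0.33 ± 0.37 (SD, n = 2; adjusted p = 0.296; 95% interval -0.11 to 0.76).

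The Hes1 probe is printed here as the array file gives it, since it spans an intron and so reads spliced RNA: its 60 bases fall within 296 bases of the genome (chr16:30065983-30066278, mm9).
Hes1 probe: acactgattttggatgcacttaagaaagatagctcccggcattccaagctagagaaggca

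Hes5, a HES repressor best known from neural progenitors, had crypt levels of 7.96, 8.23, 8.20 and 8.28 and organoid levels of 8.44, 8.31, 8.33 and 8.14. The ranges overlapped. Its ratio was 0.28 in mouse 1 and -0.002 in mouse 2, a mean of 0.14 ± 0.20 (SD, n = 2; adjusted p = 0.604), and -0.03 with only the arrays that had the organoid in Cy3 (probe at chr4:154336347-154336406, mm9).

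Nrarp, which is switched on by Notch and in turn dampens it, had crypt levels of 9.65, 9.56, 9.31 and 9.66 and organoid levels of 9.30, 9.30, 9.33 and 9.08. The organoid read lower on 3 of 4 arrays and the ranges overlapped. The mouse means of -0.31 and -0.28 gave -0.30 ± 0.02 (SD, n = 2; adjusted p = 0.217; 95% interval -0.62 to 0.03). The mouse 2 arrays, of opposite dye orientation, gave 0.02 and -0.58. An SD over 2 values can be small while the error is not, and the standard error in the moderated test was 0.128 (probe at chr2:25038038-25038097, mm9).

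Hey1, a HEY repressor, was well above background in 1 of 4 crypt channels and 0 of 4 organoid channels and was not tested (probe at chr3:8663432-8663491, mm9). Its signal less local background was 65.7 to 91.9 in crypts and 56.9 to 79.6 in organoids. Of the rest of that family, Hes3 and Heyl were too dim to test as well, and Hes7 and Hey2 reached well above background in no channel.

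RefSeq promoter windows (GRCm38.p6, 250 bases before to 50 after a start) matched 8 of the 10 genes, with 9 windows since Dll1 has 2 starts; Hes1 and Hey1 are the unmatched ones. The windows were searched on both strands for TGGGAA, the core that RBPJ is known to bind (TTCCCA on the other strand). Of the 9 windows 1 held it, that of Hes5, with 2 matches, at -226 to -221 and at -82 to -77 from the start, on opposite strands. Over all 32851 windows of the table, 25.6% held the motif at least 1 time and 3.8% at least 2 times. A match is a run of letters, and the arrays did not measure binding.

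The Hes5 and Nrarp stretches before the start are shown side by side as the pair of targets with a window, one with the core (in capitals) and one without. They are chr4:154960673-154960922 and chr2:25180508-25180757 (GRCm38.p6, both plus strand).
Hes5: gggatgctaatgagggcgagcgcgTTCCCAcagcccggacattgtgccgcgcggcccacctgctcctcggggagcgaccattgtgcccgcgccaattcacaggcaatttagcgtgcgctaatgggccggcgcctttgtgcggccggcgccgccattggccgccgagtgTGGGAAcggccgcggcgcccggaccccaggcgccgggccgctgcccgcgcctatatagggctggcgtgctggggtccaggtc
Nrarp: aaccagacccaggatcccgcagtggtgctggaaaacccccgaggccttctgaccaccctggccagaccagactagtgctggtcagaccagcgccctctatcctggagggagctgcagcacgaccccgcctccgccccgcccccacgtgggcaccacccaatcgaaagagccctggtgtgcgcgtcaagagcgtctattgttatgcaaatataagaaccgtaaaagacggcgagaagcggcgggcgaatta

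The other genes of the pathway were taken from lists by role, with 75 genes named, 73 on the array and 64 tested. Of the 64, 2 rose, 5 fell and 57 were not called, with a median ratio of 0.03, beside 0.03 over all genes. Among all genes tested 5.46% were called higher and 5.49% lower, so calls in this number are what a list of this size would hold at the share of all genes. Without the genes reported downstream of Notch in gut epithelium, 53 were tested, 1 rose and 4 fell.

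Among the other HES and HEY genes, Hes2 fell by 1.31 (± 0.17; SD, n = 2; adjusted p = 0.00786). Its array ratios were -1.64, -0.73, -1.51 and -1.35, all below 0. A second Hes2 probe, well above background in all 8 channels too, gave 0.02 ± 0.17, so the probes of this gene disagree and its direction is uncertain. The mean over both was -0.65, still called (adjusted p = 0.037) though 1 of the 2 probes was near 0. The Hes2 call was lost with the organoid in Cy3 only (-1.04, adjusted p = 0.0538) and with median centring (-1.17, adjusted p = 0.174). Hes1 (0.33) had the highest ratio of this list.

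Of 9 tested genes that cut the receptor, Aph1a, a gamma-secretase subunit, fell by 0.80 (± 0.02; adjusted p = 0.0218). Its array ratios of -1.22, -0.42, -1.25 and -0.32 were larger with the organoid in Cy5, and its second probe gave -0.35 ± 0.22. The call was lost with the mean over its probes (-0.57, adjusted p = 0.0570), with the organoid in Cy3 only (-0.37, adjusted p = 0.177) and with median centring (-0.61, adjusted p = 0.571). Its relative Aph1b had the highest ratio of the list, 0.39 ± 0.03 (adjusted p = 0.126). None of 5 genes that add sugars to the receptor was called. Their ratios ran from -0.40 for the fringe enzyme Rfng to 0.19 for Poglut1, which adds O-glucose to the receptor. None of 5 ubiquitin ligase genes for ligands was called either, from -0.46 for Neurl3 (adjusted p = 0.0870) to 0.63 for Mib1, whose product drives ligand uptake in the sending cell (adjusted p = 0.0573).

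Of 18 tested genes of the nuclear complex and its co-repressors, Tle4, a Groucho-type co-repressor, fell by 0.59 (± 0.01; adjusted p = 0.0482), a call made in 8 of 14 tests. It was lost with the scanner's ratio (adjusted p = 0.111), the matrix (0.102), median centring (-0.27, adjusted p = 0.900), no filter on dim probes (0.0667) and the organoid in Cy5 only (-0.32, adjusted p = 0.295). It was also lost without the mouse 2 array of the organoid in Cy3 (-0.41, adjusted p = 0.249). Tle2 of the same family had the highest ratio, 0.63 ± 0.46 (adjusted p = 0.106). Of 12 genes for inhibitors and turnover, Egfl7, a secreted protein reported to oppose Notch and best known from endothelium, rose by 1.01 (± 0.11; adjusted p = 0.0135). Its array ratios were 1.23, 0.64, 1.14 and 1.02, and the Egfl7 call was lost with the organoid in Cy3 only (0.83, adjusted p = 0.0534) and with median centring (1.18, adjusted p = 0.151). None of the 6 endothelial markers tested was called, with ratios from -0.60 to 0.15. They include dim ones, whose ratios the offset draws towards 0. Cldn5, for example, had a signal less local background of 101.2 to 172.8 in crypts and 101.4 to 115.5 in organoids. The source of the Egfl7 signal was not tested. Dtx1, a Deltex protein of Notch turnover, is among the genes counted as lower, with a ratio of -0.80 ± 0.03 (adjusted p = 0.0219). It was well above background in 4 of 4 crypt channels but 1 of 4 organoid channels, so it was tested only through its crypt level, and the size of its difference is not settled. Its ratio was -2.32 with the scanner's ratio and -2.33 with the matrix, and the call was lost with no background subtraction (-0.71, adjusted p = 0.0530), the organoid in Cy3 only (-0.42, adjusted p = 0.207) and median centring (-0.77, adjusted p = 0.391).

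**Figure D4:**
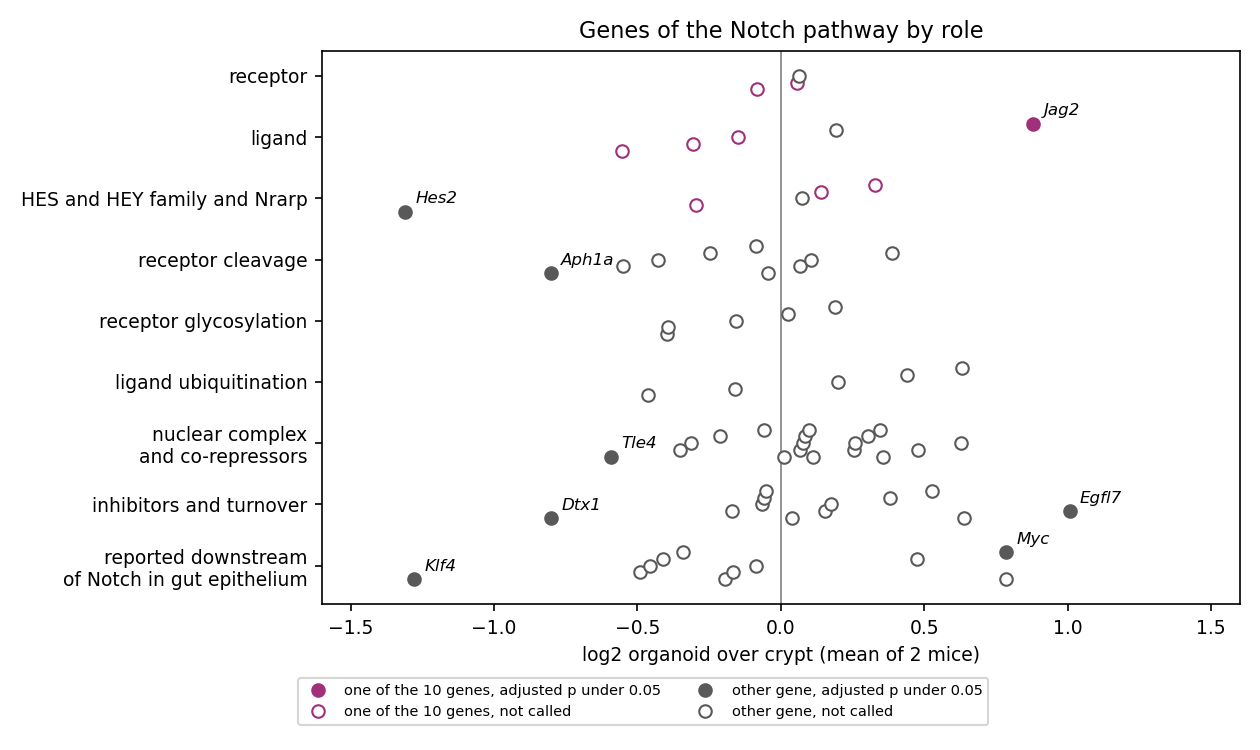
Log2 organoid over crypt ratio (mean of 2 mice) of each tested pathway gene, in rows by role; purple circles are the 10 genes, grey circles the others, and filled circles have an adjusted p under 0.05. Jag2 is the filled purple circle at 0.88, and the filled grey ones run from Hes2 at -1.31 to Egfl7 at 1.01.

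Of 11 genes reported downstream of Notch in gut epithelium, Myc, a growth regulator, rose by 0.78 (± 0.003; adjusted p = 0.0228), and its other probes gave 0.77 and 0.81. Its call was lost with the scanner's ratio (adjusted p = 0.0565), the matrix (0.0563), the organoid in Cy3 only (0.63, adjusted p = 0.0761) and median centring (1.06, adjusted p = 0.223). Klf4, a differentiation factor of goblet cells, fell by 1.28 (± 0.29; adjusted p = 0.0113), with the call lost under no filter on dim probes (adjusted p = 0.0559) and median centring (-0.92, adjusted p = 0.268). Goblet, Paneth and enterocyte marker sums were all lower in organoids on all arrays. The goblet sum was 340900 to 438200 in crypts and 80130 to 108600 in organoids. The enterocyte sum was 524300 to 685500 in crypts and 156500 to 238500 in organoids. The part of any of these cells in the Klf4 value was not tested. Sox9, a crypt base factor, had the highest ratio of the list, 0.79 ± 0.38 (adjusted p = 0.0511). The secretory fate factors, named here for their role after their values were seen, were not called. Atoh1 had -0.41 ± 0.20 (adjusted p = 0.140), Gfi1 -0.49 ± 0.29 (adjusted p = 0.118), Spdef -0.34 ± 0.13 (adjusted p = 0.179) and Neurog3 -0.20 ± 0.09 (adjusted p = 0.410). Olfm4, a stem cell gene known to need Notch, had -0.09 ± 0.21 (adjusted p = 0.764).

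Across the ways of processing and selections of arrays, Jag2 was above 0 in each of 16 sets of values, from 0.62 to 1.89, and was called in 12 of 14 tests. Dll4 was below 0 in all 16, from -0.81 to -0.29, and was called in 2 of 14. Jag1 and Nrarp were below 0 and Hes1 above 0 in all 16, and none of these was called in any of 14 tests. Notch1, Notch2, Dll1 and Hes5 took both signs.

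**Figure D5:**
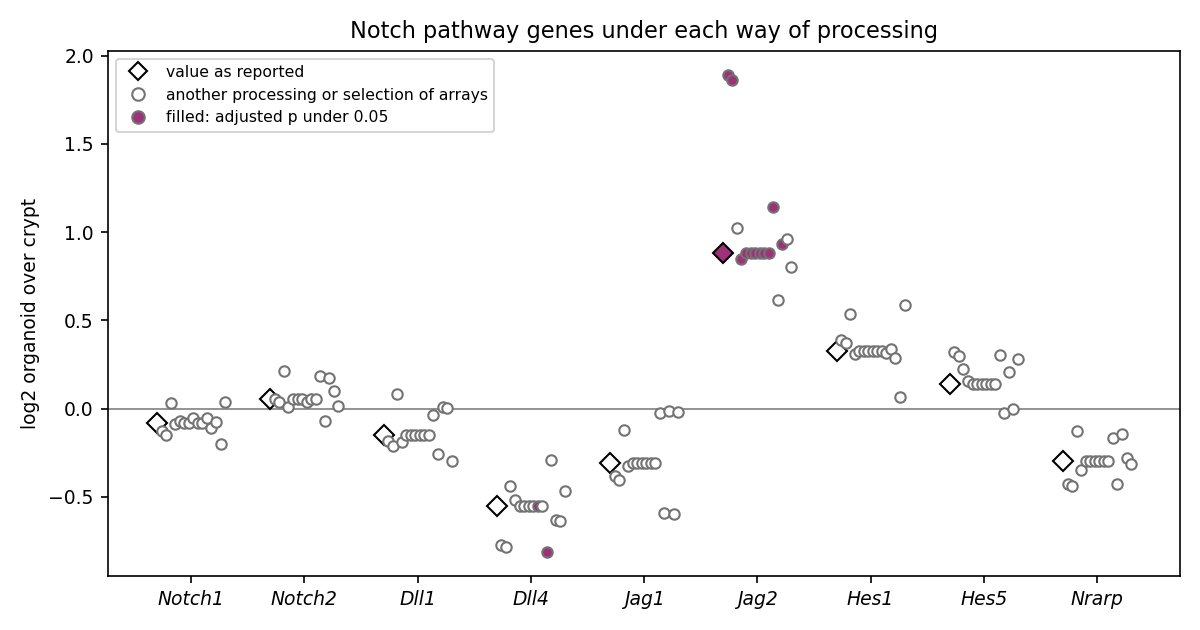
Log2 organoid over crypt ratio of each tested gene under each way of processing and each selection of arrays or mice (circles), with the value as reported (diamond); filled symbols have an adjusted p under 0.05. Jag2 stays between 0.62 and 1.89 and Dll4 between -0.81 and -0.29, while Notch1, Notch2, Dll1 and Hes5 lie on both sides of 0.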

How the data were processed

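For each dye, the deposited files give a spot's mean intensity and its median local background, both linear. The log10 ratio (Cy5 over Cy3) is that of the scanner software, per the file headers. Those headers name Agilent Feature Extraction 10.2.1.3, and the submitters' processing notes 9.5.3. The authors' series matrix holds log2-scale values that correlated with the scanner's ratios at r = 0.978 to 0.991, with a median of 0 in each array; the steps behind it are not given in the sources used here. For RNA isolation the labels name Trizol and the design text an RNeasy kit.

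In limma 3.58.1 (R 4.3.3), signals were background corrected (normexp, offset 50) and loess normalised within arrays, with controls at weight 0. Outlier-marked spots (161 to 197 per array) were dropped and the spots of a probe averaged. The dye labels gave each ratio its direction, organoid over crypt, and the mean over its 2 arrays was used for each mouse. Tested were the 21921 probes well above background in every crypt channel or in every organoid channel. The brightest stood for its gene, named through RefSeq accessions (24844 of 41174 probes) or else by the file's name. lmFit and eBayes tested the 2 mouse values of 15537 genes against 0 with 1 residual and 4.19 prior degrees of freedom, two-sided, with Benjamini-Hochberg adjustment. The fit was tested on simulated data. Levels are channel intensities after loess and Aquantile scaling. The number of arrays limits the precision. All 4 arrays share 1 slide.

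The 10 genes, the pathway lists and the markers were chosen with earlier results of these data known. The rule named the 10, the other pathway genes called, and the highest and lowest of each list. Outside it, Dll3, Notch3, Hes3, Hes7, Hey2, Heyl, Olfm4, the secretory fate factors and Tle1 were named after their values were seen. Of the markers for enterocytes 9 of 10 fell; of 9 for enteroendocrine cells 8 were tested and 1 fell; of 7 for tuft cells 5 were tested and none was called; of 12 for fibroblasts and muscle 4 were tested and 1 fell; and of 13 for white blood cells 3 were called lower (Cd3g, Gzma and Gzmb), which passed the filter through the crypt channels, with 0, 1 and 3 of 4 organoid channels well above background. The fibroblast and muscle marker that fell was Acta2 (-0.66), and another tested Acta2 probe gave 0.04, so its probes disagree. Alternatives covered the background, normalisation, filter, probe choice, replicate unit, dye orientation and mice. One more, without the mouse 2 array of the organoid in Cy3, was chosen after seeing the data. Probe positions are mm9 as the files give them; exon and UTR annotation in that build was not used here.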

Additional observations from a re-analysis of the deposited data

Results flagged for a closer look

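The Jag1 ratio on the mouse 2 array with the organoid in Cy3 (-1.18) lay far from the other 3 arrays (-0.03, 0.00 and -0.01). Its gap to the nearest array was 0.973 of the whole range of the 4 values, above Dixon's critical value for 4 values. Chance gives about 1 such gap in 20 groups, 9 genes were looked at, and the arrays are technical pairs of 2 mice rather than 4 independent samples. On that array the crypt level was 10.42 and the organoid level 9.24, the highest crypt and the lowest organoid Jag1 level of the study.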

How the results depend on the processing

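Under 12 other ways of processing, the 9 tested genes gave 108 values, of which 100 kept their direction and their side of the threshold. Of the 9 genes, 0 were called higher with median centring (Jag2 1.02) or with the organoid in Cy3 only (Jag2 0.62). Those called lower numbered 1, Dll4, with 4 separate arrays plus a dye effect or with the organoid in Cy5 only. The sign turned, without a call, for Notch1 (0.032) and Dll1 (0.082) with median centring, for Notch2 (-0.072) and Hes5 (-0.027) with the organoid in Cy3 only, for Notch4 with the organoid in Cy5 only (-0.063), and without the mouse 2 array of the organoid in Cy3 for Dll1 (0.009) and Notch4 (-0.057).

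Among all genes, calls higher and lower were 134 and 96 with median centring, 293 and 384 with no filter on dim probes, 1952 and 1757 with 4 separate arrays plus a dye effect, 1592 and 1492 with mouse as a random block, and 432 and 476 with the organoid in Cy3 only. The fits of 4 arrays treat technical repeats as samples to different degrees. Of the other pathway genes, 2 higher and 5 lower became 0 and 0 with median centring, 8 and 11 with the dye effect, 8 and 9 with the block, and 0 and 2 with the organoid in Cy3 only. Those higher were 1 with the scanner's ratio and with the matrix, and 4 with the mean over probes and with the organoid in Cy5 only, and those lower were 3 with no filter. The cause of these shifts was not tested. The reported test is itself paired, since each ratio is taken within a mouse. Leaving out a mouse gave values with no test, for Jag2 from 0.80 to 0.96 and for Dll4 from -0.64 to -0.47. With 2 mice, the 95% intervals of genes not called reached from -0.89 (Dll4) to 0.76 (Hes1).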

Other observations

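Tle1, a Groucho-type co-repressor named after its values were seen, read higher in organoids of mouse 1 and lower in those of mouse 2 (1.04 and -0.85; adjusted p = 0.923). Its array ratios were 1.35, 0.73, -1.78 and 0.09. A second Tle1 probe gave 0.57 and -0.77 in the 2 mice. The difference between the mice was not tested, since each contributes 1 value.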
